A study of Rattus norvegicus with 10 samples.

Results

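The genes described here encode the non-collagen proteins of the extracellular matrix: glycoproteins of fibres and basement membranes, proteoglycans, matricellular proteins, and the proteases and inhibitors that turn the matrix over. The tissue was the pituitary's neurointermediate lobe, taken from male Sprague Dawley rats aged 10 to 12 weeks. A group of 5 arrays came from animals dehydrated for 3 days and another group of 5 from controls. Lobes of 5 rats were pooled for every array, as the labels state, and replicate error here is therefore variation among pools. How water was withheld is not given in the sources used here. The 44 genes were a given list, chosen with earlier results of these data known. A gene was read from the probe set (the group of short probes that reports 1 transcript on an Affymetrix array) that carries its symbol alone and has the highest mean signal over all 10 arrays. Of the 44 genes, 42 had such a probe set, among 14217 genes on the array, and Spock2 and Thbs1 had none. Of the 42, 37 passed the filter on dim probe sets and were tested, and Eln, Ncan, Acan, Thbs2 and Thbs4 lay below it.

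The neurointermediate lobe joins the neural lobe, where the axons that release vasopressin and oxytocin reach, between glial pituicytes, the basement membranes of fenestrated capillaries, to the intermediate lobe of melanotrophs. The neural lobe lacks a blood-brain barrier, and its perivascular spaces hold fibroblasts and a loose matrix. Hormone reaches the blood across this matrix, and pituicytes are known to withdraw from axon endings and basement membranes when secretion is high. Proteoglycans bind water and growth factors, laminins and nidogens build the basement membrane, fibrillins and fibulins build elastic microfibrils, and matricellular proteins adjust how cells hold on to all of these.

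The title and all sample labels name the neurointermediate lobe, whereas the design text of the series speaks of the supraoptic nucleus. Among markers used for the lobe, Pomc and Tbx19, listed for melanotrophs, had control signals of 755 ± 111 and 594 ± 68.7. Rax, listed for pituicytes, had 344 ± 15.6 (SD, n = 5). Pax7, another melanotroph marker, had no probe set with 1 symbol. The anterior lobe hormone genes Gh1, Prl and Lhb had control signals of 2108 ± 1105, 1301 ± 527 and 163 ± 78.55 (SD, n = 5). Gh1 ran from 746 to 3336 among control pools, so RNA of the anterior lobe was present and uneven. Its part in the Pomc and Tbx19 signals was not assessed. Every array had been scaled to the same trimmed mean signal, so a change is relative to the average probe set. The number of arrays limits the precision. In a whole lobe, more cells of a type and more RNA per cell cannot be told apart.

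Dehydrated lobes held more RNA of matrix genes from several roles. Of the 37 tested genes, 12 rose (Postn, Fbln2, Mgp, Cthrc1, Lamb1, Vcan, Adamts1, Lum, Bgn, Lama4, Dcn and Fbn1) and 1 fell (Spock3), at a limma adjusted p under 0.05. The 12 that rose were 32.4% of the tested genes, and among all 18625 tested probe sets 1.68% rose and 0.784% fell, 2.46% together. Because the list was chosen with earlier results of these data known, the gap between these shares is not a test. The other 24 did not pass, with log2 changes from -0.48 to 0.45, of which 14 were positive and 10 negative. The median log2 change of the 37 genes was 0.20, and that of all tested probe sets was -0.01. In 13 genes all dehydrated arrays lay above all control arrays and in 2 below, where 2.78% and 1.81% of all tested probe sets did so, 4.59% together. Under 22 other settings, between 9 and 13 matrix genes rose, with 11 when dehydrated 5 and control 1 were both left out. In RNA integrity (the 3' to 5' ratio below), dehydrated 5 had the lowest ratio of its group and control 1 the highest. Leaving out both therefore set the groups further apart in RNA integrity.

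**Figure D1:**
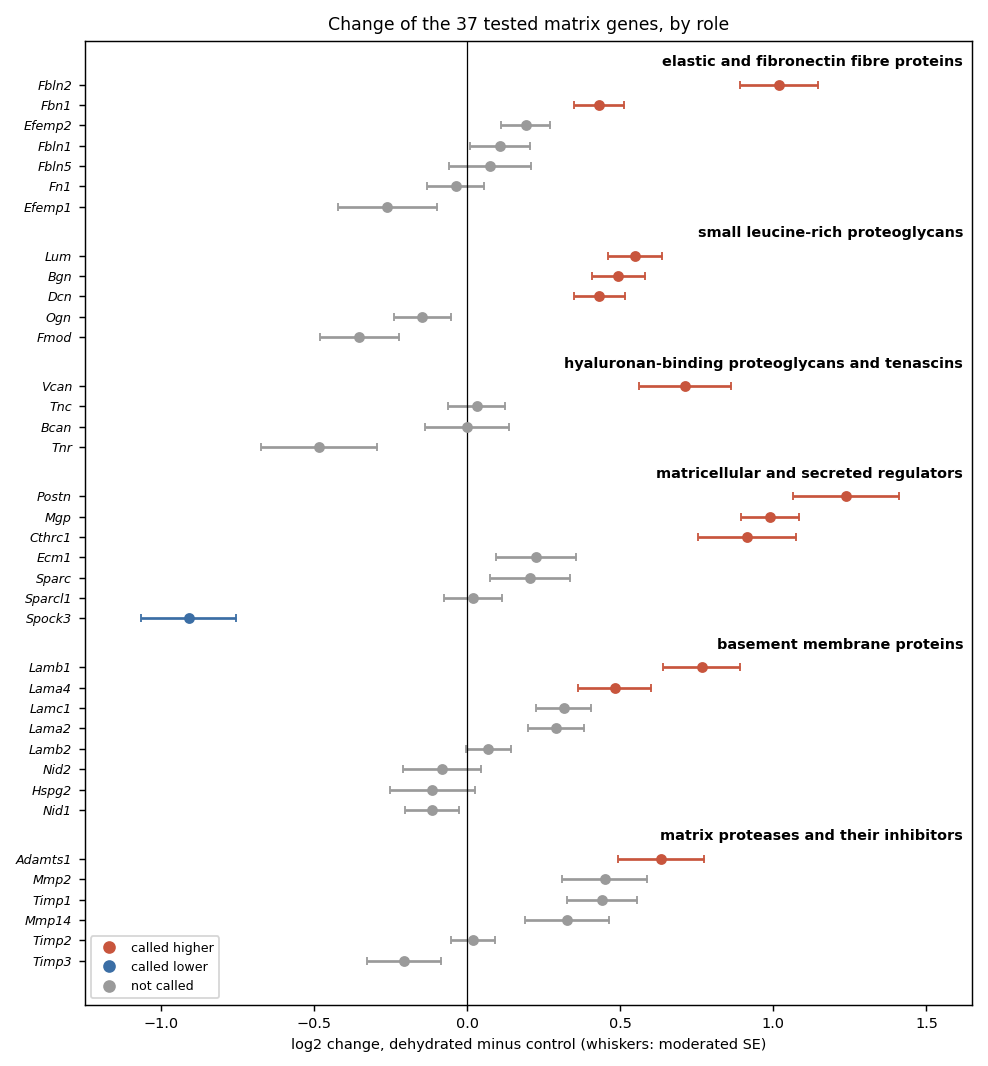
Log2 change (dehydrated minus control, horizontal axis) of the 37 tested matrix genes, grouped by role, with whiskers of 1 moderated SE from limma; red genes rose, the blue gene fell and grey genes did not pass. Each role holds at least 1 gene that rose, and Spock3 at -0.91 is the single one that fell. Adamts1 is the only such gene among the proteases and Vcan among the hyaluronan-binding proteins, and both calls ended under some other settings.

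Promoters were shown for genes that moved together or apart: Postn had the largest increase, Fbln2 the next, and Spock3 fell. RefSeq promoter windows (build GRCr8) were matched by symbol for 32 of the 44 genes, 8 of the 12 that rose among them, and the 250 bases before the annotated start are used. In the sequences, printed 5′ to 3′ on the gene's own strand, capitals mark the so-called TATA box TATAAA, the GC box GGGCGG and the core TGGAAA of the tonicity element bound by NFAT5, each searched on both strands. The windows are chr2:140677811-140678060 (plus strand) for Postn, chr4:125261409-125261658 (plus strand) for Fbln2 and chr16:31581946-31582195 (minus strand) for Spock3.
Postn: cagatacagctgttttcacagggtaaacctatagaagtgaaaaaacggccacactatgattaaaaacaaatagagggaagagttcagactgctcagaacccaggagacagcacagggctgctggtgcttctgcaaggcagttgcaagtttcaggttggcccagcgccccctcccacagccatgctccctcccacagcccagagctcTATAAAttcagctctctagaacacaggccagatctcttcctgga
Fbln2: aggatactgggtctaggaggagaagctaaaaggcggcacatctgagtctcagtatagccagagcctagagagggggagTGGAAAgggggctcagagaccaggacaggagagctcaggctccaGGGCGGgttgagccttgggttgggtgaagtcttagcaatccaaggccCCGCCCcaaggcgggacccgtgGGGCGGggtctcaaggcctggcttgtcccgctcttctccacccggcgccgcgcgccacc
Spock3: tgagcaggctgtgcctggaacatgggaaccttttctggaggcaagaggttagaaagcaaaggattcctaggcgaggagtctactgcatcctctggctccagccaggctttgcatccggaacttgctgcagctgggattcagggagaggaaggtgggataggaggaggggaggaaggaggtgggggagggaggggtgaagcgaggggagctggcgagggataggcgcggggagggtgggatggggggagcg
The Postn window holds 1 TATA box, 44 to 39 bases before the start, and has a GC content of 50.8%. The Fbln2 window has no TATA box, 3 GC boxes and 1 tonicity core, at 64.0% GC, and the Spock3 window has none of the 3 motifs, at 61.6% GC.

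Across the 8 genes that rose and had a window, no motif was common to all. TATAAA was in 3 of them (Postn, Lama4 and Adamts1) and in 12.9% of all 33469 windows, GGGCGG was in 4 (Fbln2, Vcan, Lamb1 and Adamts1) and 30.5%, and TGGAAA was in 3 (Fbln2, Vcan and Lama4) and 19.7%. Among the 18 matrix genes with a window that did not pass, TATAAA was in 3, GGGCGG in 14 and TGGAAA in 2. The Smad element CAGACA was in 2 (Fbn1 and Lama4) and 17.2%. The AP-1 element TGANTCA was in 0 of the 8 and 6.34% of all windows, and the TEAD element GGAATG in 0 and 12.1%. Of the 18 that did not pass, 3 held CAGACA, 2 TGANTCA and 5 GGAATG. A match is a description of the letters, not of a bound site.

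Among proteins of elastic and fibronectin fibres, Fbln2 and Fbn1 rose, and 5 of the 7 tested did not pass. Fbln2, a fibulin that links elastic fibres to basement membranes and to versican, had signals of 406, 459, 410.3, 301 and 432 on control arrays 1 to 5. On dehydrated arrays 1 to 5 it had 624, 726, 863, 858 and 1043. Every dehydrated pool was above every control pool, and the change was 1.02 ± 0.13 (SE) on the log2 scale (limma adjusted p = 0.000291). Fbn1, the fibrillin that forms the backbone of microfibrils, had signals of 230.1, 244, 233, 230.4 and 221 in controls and 284, 285, 365, 310 and 332 in dehydrated lobes. Its control pools were tight, and all dehydrated pools lay above them, by 0.43 ± 0.08 (SE) on the log2 scale (adjusted p = 0.00882). A second, dimmer Fbn1 probe set changed by 0.33 and did not pass (adjusted p = 0.125).

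The relatives of these genes were measured as well. Fibulins Fbln1 and Fbln5, which also bind elastic fibres, changed by 0.11 ± 0.10 and 0.07 ± 0.13 (SE), and neither passed. The fibulin-like Efemp2, needed for elastic fibre assembly, changed by 0.19 and its relative Efemp1 by -0.26. Fn1, the fibronectin that cells lay down as a first matrix, had 215 ± 18.5 in controls and 209 ± 23.5 in dehydrated lobes (SD, n = 5). Eln, the elastin gene, was below the filter, at 18.6 ± 9.47 and 18.1 ± 1.61.

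**Figure D2:**
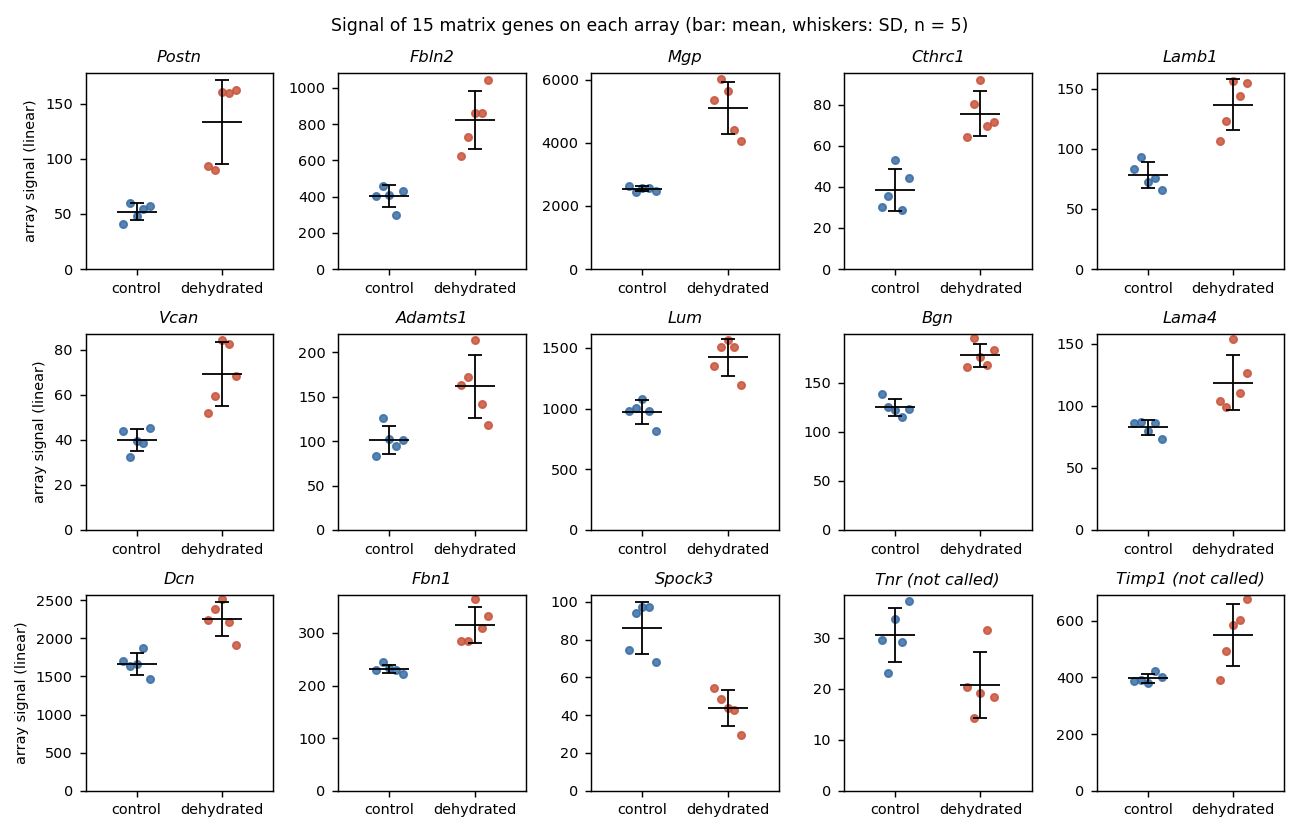
Array signal (linear, vertical axis from 0) of 15 matrix genes on 5 control arrays (blue) and 5 dehydrated arrays (red), with the mean as a bar and whiskers of 1 SD. In the 12 genes that rose the groups touch only in Adamts1, and Spock3 lies lower in every dehydrated array; Timp1 and Tnr did not pass.

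Of the 5 small leucine-rich proteoglycans, which coat collagen fibrils and set their thickness, 3 rose and 2 did not pass. Lum, lumican, had 977, 1006, 1078, 981 and 815 in control pools and 1352, 1511, 1563, 1504 and 1191 in dehydrated pools. Its lowest dehydrated pool, the fifth, stood above the highest control (log2 change 0.55 ± 0.09 SE, limma adjusted p = 0.00253). Dcn, decorin, which binds collagen and TGF-beta, had 1698, 1641, 1660.4, 1868 and 1468.5 against 2242, 2389, 2517, 2210.2 and 1909.7. All 5 dehydrated pools were above the controls, by 0.43 ± 0.08 (SE; adjusted p = 0.00895, and 0.0550 without an intensity trend). Bgn, biglycan, had 139, 125, 122.5, 115 and 123 against 166, 195.5, 176, 168 and 183. It too had no overlap, with a change of 0.49 ± 0.09 (SE; adjusted p = 0.00468).

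The other 2 members of that family had negative values. Fmod, fibromodulin, had 134, 97.2, 106, 103 and 98.8 in controls and 92.2, 81.7, 95.2, 61.0 and 88.2 in dehydrated lobes. These pools did not overlap, yet the change of -0.35 ± 0.13 (SE) did not pass (limma adjusted p = 0.169). Ogn, osteoglycin, changed by -0.15 (adjusted p = 0.448), and its 3 other probe sets by -0.40, -0.03 and 0.08, none of which passed.

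Among the proteoglycans that bind hyaluronan and the tenascins that cross-link them, Vcan alone rose, and 3 of the 4 tested did not pass. Vcan, versican, the member of loose connective tissue and vessel walls, had 43.9, 32.4, 39.7, 38.6 and 45.2 in controls and 52.0, 59.3, 84.4, 82.6 and 68.4 in dehydrated lobes. No pool overlapped, and the change was 0.71 ± 0.15 (SE, limma adjusted p = 0.0169). Without dehydrated 3 it was 0.64 with an adjusted p of 0.0627. Its 2 other tested probe sets changed by 0.63 and 0.62 (adjusted p = 0.122 and 0.0573), in the same direction but without a call.

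The members of this family that belong to nervous tissue did not pass. Bcan, brevican of perineuronal nets and glia, had 82.6 ± 11.7 and 83.0 ± 15.2 in control and dehydrated lobes (SD, n = 5). Tnc, tenascin C, had 511 ± 48.2 and 524 ± 68.5. Tnr, tenascin R of oligodendrocytes, had 29.6, 23.0, 33.7, 29.1 and 37.2 in controls and 20.3, 14.3, 19.2, 31.4 and 18.4 in dehydrated lobes. Of the dehydrated pools, 4 lay below all controls and the fourth among them, and the change of -0.48 ± 0.19 (SE) did not pass (limma adjusted p = 0.201). Ncan and Acan, neurocan and aggrecan, were below the filter. Ncan had signals of 0.9 to 14.4 in controls and 2.0 to 15.7 in dehydrated lobes, and Acan had 17.8 to 31.6 and 13.1 to 38.8. Acan had a mean log2 value of 4.77, just under the limit of 4.78, and Tnr was just above it at 4.89.

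The matricellular and secreted regulators held the largest increase and the single decrease. Of 7 tested, 3 rose and 1 fell. Postn, periostin, which is made by activated fibroblasts and supports collagen cross-linking, had 40.7, 59.6, 48.4, 54.7 and 57.1 in controls and 93.4, 89.7, 160.3, 159.8 and 163 in dehydrated lobes. Dehydrated pools 3 to 5 stood close together at the top and pools 1 and 2 between them and the controls (log2 change 1.24 ± 0.17 SE, limma adjusted p = 0.000829). Mgp, the matrix Gla protein that restrains mineral deposition, had 2636.5, 2457, 2577, 2578 and 2472 in controls, and 5363, 6032, 5638, 4410.4 and 4076 in dehydrated lobes. The control pools were close together, and the rise was 1.98-fold (log2 change 0.99 ± 0.10 SE, adjusted p = 1.82e-05). Quantile normalization gave 0.76 for Mgp.

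Cthrc1, a secreted protein of collagen-producing cells, was dim but separated the groups. It had 30.4, 35.5, 53.3, 28.7 and 44.2 in controls and 64.5, 80.4, 92.2, 69.5 and 71.6 in dehydrated lobes (log2 change 0.91 ± 0.16 SE, limma adjusted p = 0.00504). In the other direction, Spock3, a testican proteoglycan mostly of neurons, had 74.3, 93.9, 97.4, 97.0 and 67.9 in controls and 54.5, 48.5, 43.7, 42.7 and 29.4 in dehydrated lobes. Every dehydrated pool lay below every control, and the change was -0.91 ± 0.16 (SE, adjusted p = 0.00427). Its relative Spock2 was not analysed here.

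The other matricellular genes did not pass on the probe set used. Sparc, the collagen chaperone osteonectin, had 765 ± 120.4 and 889 ± 189 (SD, n = 5), a change of 0.20 ± 0.13 (SE, limma adjusted p = 0.443). Its second probe set rose by 0.59, from 269 to 398 (adjusted p = 0.0431), so the 2 probe sets of this gene differ in their call. Its relative Sparcl1, a product of astroglia and vessels, changed by 0.02 ± 0.10 (SE), and Ecm1 changed by 0.22 ± 0.13 (SE). The thrombospondin genes Thbs2 and Thbs4, whose products bind cells and growth factors, were below the filter. Their control signals were 17.7 ± 4.82 and 13.1 ± 2.82, and their dehydrated signals were 20.6 ± 2.95 and 19.2 ± 7.32. Tested without the filter, the 5 dim genes had adjusted p of 0.551 to 0.969.

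Of 8 tested basement membrane genes, 2 laminin chains rose and 6 genes did not pass. Lamb1, the beta 1 chain, had 83.4, 93.5, 72.1, 75.9 and 65.5 in controls and 106, 123, 156, 144 and 154 in dehydrated lobes, with no overlap (log2 change 0.77 ± 0.12 SE, limma adjusted p = 0.00293). Lama4, the alpha 4 chain of vessel walls, had 86.4, 86.6, 80.1, 86.3 and 73.6 in controls and 104, 99.1, 154, 110.1 and 126 in dehydrated lobes. Dehydrated 3 was well above the rest, and the change was 0.48 ± 0.12 (SE, adjusted p = 0.0426). That call ended without any 1 of 8 arrays, all but dehydrated 2 and 5. Adjusted p then reached 0.118, with a change of 0.39 without dehydrated 3. It also ended when the gene's 2 probe sets were averaged (0.28, adjusted p = 0.514), and under 4 further settings with adjusted p from 0.0502 to 0.0721.

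Lamc1, the gamma 1 chain shared by most laminins, and Lama2, the alpha 2 chain of muscle and nerve sheaths, had no overlap between groups but did not pass. Lamc1 had 365, 380.1, 379.5, 387 and 324 in controls and 416, 443, 540.2, 395 and 507 in dehydrated lobes, a change of 0.31 ± 0.09 (SE, limma adjusted p = 0.0764). Its second probe set changed by -0.07, and the average of both by 0.12 (adjusted p = 0.688). Lama2 had 193, 197, 193, 177 and 185 against 203, 219.5, 265, 211 and 269.9, a change of 0.29 ± 0.09 (SE, adjusted p = 0.111). Lamb2, the beta 2 chain, changed by 0.07 ± 0.07 (SE). The nidogens Nid1 and Nid2, which tie laminin to collagen IV, changed by -0.12 and -0.08, and the heparan sulphate proteoglycan Hspg2, perlecan, by -0.11. None of these 4 passed.

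Among proteases and inhibitors, 1 of 6 rose and none fell. Adamts1, a metalloprotease that cleaves versican and aggrecan, had 82.9, 126, 103, 94.9 and 100.8 in controls and 163, 172, 214, 141 and 118 in dehydrated lobes. Dehydrated 5 lay below the highest control, and the change was 0.63 ± 0.14 (SE, limma adjusted p = 0.0237). Leaving out dehydrated 1, 2 or 3, or control 1, 3, 4 or 5, ended this call, with adjusted p from 0.0514 to 0.0783, as did testing without the filter (0.0513) or without an intensity trend (0.0693). Timp1, the inducible inhibitor of metalloproteases, had 387, 392, 379.9, 421 and 400.4 in controls and 389, 493, 583, 601 and 675 in dehydrated lobes. Dehydrated 1 sat among the controls and the other 4 above them, and the change of 0.44 ± 0.11 (SE) narrowly missed the threshold (adjusted p = 0.0527). Without dehydrated 1 it was 0.56 with an adjusted p of 0.00361.

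The other enzymes and inhibitors did not pass. Mmp2, the gelatinase that degrades collagen IV, had 132 ± 28.2 and 181 ± 32.7 (SD, n = 5), a change of 0.45 ± 0.14 (SE, limma adjusted p = 0.100). Without control 3 it passed (0.56, adjusted p = 0.0369), and with its 2 probe sets averaged the change was 0.08 (adjusted p = 0.816). Mmp14, its membrane-bound activator, changed by 0.33 ± 0.14 (SE, adjusted p = 0.233), or 0.11 with its probe sets averaged. Timp2, which takes part in that activation, changed by 0.02 ± 0.07 (SE). Timp3, the inhibitor held in the matrix, changed by -0.21 ± 0.12 (SE), and its second-brightest probe set by 0.11.

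**Figure D3:**
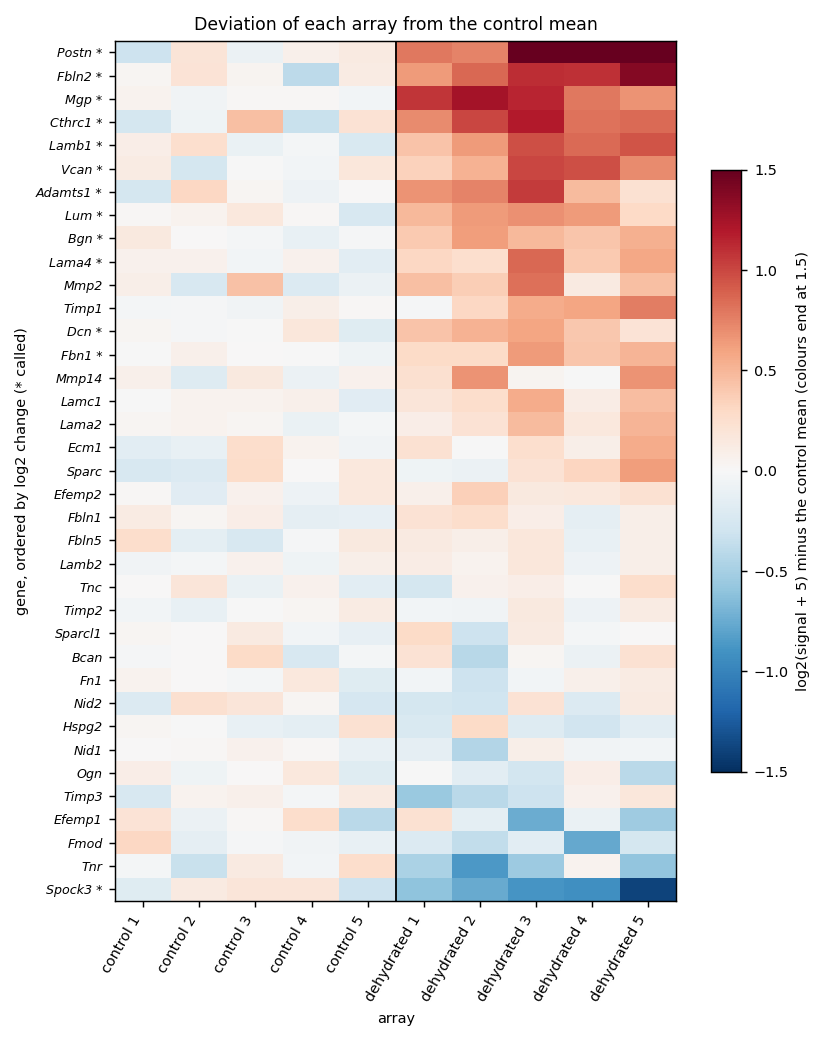
Deviation of each of the 10 arrays (columns) from the control mean, in log2(signal + 5), for the 37 tested matrix genes (rows, ordered by change; an asterisk marks genes that passed). Red is above and blue below the control mean; dehydrated 3 is the darkest column for most of the genes that rose.

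The genes that rose were not raised equally on each dehydrated array. Dehydrated 3 was the highest of all 10 arrays for 8 of the 12, dehydrated 2 for 2 (Mgp and Bgn) and dehydrated 5 for 2 (Postn and Fbln2). Dehydrated 1 was the lowest of its group for 6. The median deviation of the 12 genes from their control means was 0.98 on dehydrated 3 and 0.71 on dehydrated 4. It was 0.64 on dehydrated 2, 0.63 on dehydrated 5 and 0.46 on dehydrated 1. On control arrays it lay between -0.03 and 0.06. Without dehydrated 3, 9 of the genes rose.

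RNA integrity was read as log2 of signal near the 3' end over signal near the 5' end, from the array's own control probe sets for Gapdh and Actb. Shorter RNA gives a higher 3' to 5' ratio. Dehydrated pools had 2.15 ± 0.38 and control pools 1.78 ± 0.48 (SD, n = 5), with an exact two-sided permutation p of 0.214. Without control 1 the difference went from 0.37 to 0.56 (exact permutation p = 0.0476). The 10 arrays allow no p below 0.00794. With dehydrated 5 (1.61) and control 1 (2.52) both left out, the ratios of the groups no longer overlapped. Control pools then ran from 1.26 to 1.91 and dehydrated pools from 2.05 to 2.67. In that setting condition and RNA integrity cannot be told apart. Dehydrated 3, with the largest deviations, had a ratio of 2.15, the third of the 5 in its group. With this ratio as a covariate, 13 matrix genes rose and 1 fell. Lama4 lost its call there (adjusted p = 0.0688), and Sparc (0.0481) and Timp1 (0.0261) gained one.

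Other genes that work with the matrix, outside the list of 44 genes, were looked at in 4 lists of 124 genes. Of these, 109 had a probe set and 76 were tested. Of the 76, 3 rose and 1 fell, with a median log2 change of 0.01. Their share that rose, 3.95%, stood beside 1.68% of all probe sets, and the median of all probe sets was -0.01. Htra1, a secreted serine protease that cleaves proteoglycans and fibronectin, had 623, 628, 600.0, 578 and 589 in controls and 876, 961, 917, 844 and 884 in dehydrated lobes. The groups were far apart for its spread (log2 change 0.57 ± 0.06 SE, limma adjusted p = 9.95e-05). Serpinf1, a secreted serpin that curbs vessel growth, rose by 0.42 ± 0.10 (SE, adjusted p = 0.0363). Leaving out dehydrated 3 or 4, or control 1, 2, 4 or 5, ended that call, with adjusted p up to 0.0950. They were the called members among 23 tested proteases and inhibitors, and 21 did not pass.

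Of 17 tested genes of TGF-beta signalling and early matrix induction, 1 rose and 1 fell. Ccn2, connective tissue growth factor, had 379, 414, 324, 390.3 and 428 in controls and 617, 569, 822, 650.3 and 696 in dehydrated lobes, without overlap (log2 change 0.78 ± 0.10 SE, limma adjusted p = 0.000291). Tgfb3, a TGF-beta ligand, fell, from 187, 198.5, 228, 137.5 and 176 to 90.3, 96.8, 122, 127 and 138. Dehydrated 5 was just above the lowest control, and the change was -0.67 ± 0.14 (SE, adjusted p = 0.0148, and 0.0520 without an intensity trend). None of 22 tested matrix receptors passed (integrins, syndecans, glypicans and others). Their smallest p was that of the syndecan Sdc3, at -0.54 (adjusted p = 0.158). None of 14 tested genes from the list for hyaluronan and glycosaminoglycan synthesis passed either, and the chondroitin synthase Chsy1 had the smallest p (0.38, adjusted p = 0.0816). No hyaluronan synthase was among those tested, as Has2 was below the filter and Has1 and Has3 had no probe set with 1 symbol. At an unadjusted limma p, Sdc3 was at 0.0124 and Chsy1 at 0.00339.

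**Figure D4:**
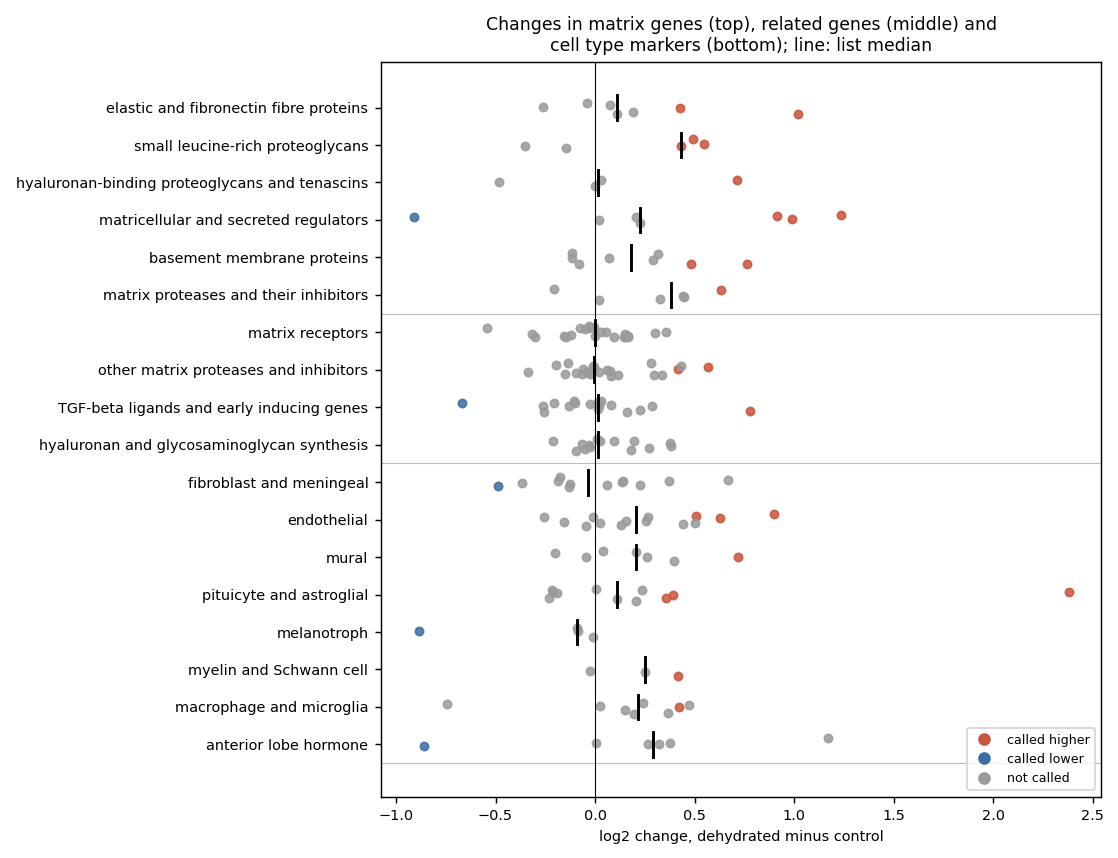
Log2 change (dehydrated minus control, horizontal axis) of each tested gene in 6 roles of matrix genes, 4 lists of related genes and 8 lists of cell type markers, with black lines at the list medians; red genes rose, blue fell and grey did not pass. Of the markers tested, 0 of 12 fibroblast, 3 of 14 endothelial, 1 of 7 mural and 3 of 11 pituicyte markers rose. So did 1 of 3 myelin and 1 of 8 macrophage markers, beside 1.68% of all tested probe sets. Flt1, Kdr, Slc1a3, Pmp22 and Aif1 lost their calls with a gene's probe sets averaged.

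Markers of cells that could contribute matrix RNA were read beside these results, none of them a matrix gene of the list above. Of 18 fibroblast and meningeal markers, 12 were tested, none rose and 1, Islr, fell (log2 change -0.49 ± 0.10 SE, limma adjusted p = 0.0162, reaching 0.0589 without control 3 or dehydrated 3). The defining fibroblast genes Col1a1, Col1a2 and Col3a1, the chains of fibrillar collagens, changed by 0.23, -0.17 and 0.14, Pdgfra by 0.37 and Dpt by -0.13, and none passed (adjusted p = 0.109 to 0.723). The largest value of the list, Mfap5 at 0.67, from 66.8 to 106.9, did not pass either (adjusted p = 0.0663). Pdgfra passed without dehydrated 2 (0.48, adjusted p = 0.0135), and Col1a2 passed as lower without dehydrated 5 and control 1 (-0.29, adjusted p = 0.0437). The summed signal of this list ran from 3223 to 3695 in controls and from 2982 to 3768 in dehydrated lobes, so the groups overlapped. The part of fibroblasts in the result was not tested.

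Of 14 tested endothelial markers 3 rose and 11 did not pass, 4 of them with negative values down to -0.26 (Tie1). Those that rose were the VEGF receptor genes Flt1 (0.90) and Kdr (0.63) with the sialomucin Emcn (0.51). The summed signal of the endothelial list, these 3 genes included, was 1522 to 1963 in controls and 2032.5 to 2431 in dehydrated lobes. Flt1 lost its call when dehydrated 3 was left out (adjusted p = 0.0589), and both Flt1 and Kdr lost theirs with a gene's probe sets averaged (0.19 and 0.08). Of 7 tested mural markers, the pericyte gene Rgs5 rose by 0.72 and 6 did not pass, 2 of them with negative values. The mural sums were 580.3 to 627 and 656 to 761, and they include Rgs5, with means of 112 in controls and 188 in dehydrated lobes. Sums without the genes that rose were not compared. Pecam1, Pdgfrb and Acta2, other defining markers of these cells, changed by -0.01, 0.04 and -0.04 and did not pass. The part of vessel cells in the matrix result was not tested.

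Among glial markers, Gfap rose by 2.38 and Lhx2 and Slc1a3 by 0.39 and 0.36, 3 of 11 tested. The other 8 did not pass, 4 of them with negative values (Rax -0.19, S100b -0.21, Aqp4 -0.22 and Fabp7 -0.23), and the defining gene Nkx2-1 had 0.21. Glial sums overlapped, at 6060 to 6815 in controls and 6763 to 7604 in dehydrated lobes. The call of Slc1a3 ended with probe sets averaged (0.04) and without an intensity trend (adjusted p = 0.0509). The summed myelin and Schwann cell signal was 1049 to 1201 and 1297 to 1449, where 1 of 3 tested genes, Pmp22, rose by 0.42 (0.26 with probe sets averaged, adjusted p = 0.0635). Pmp22 is part of that sum, with means of 596 in controls and 795 in dehydrated lobes. Macrophage sums overlapped, at 1314 to 1772 and 1392 to 2103, and Aif1, 1 of 8 tested, rose by 0.42 (adjusted p = 0.0375). The largest value of that list was Cd68 at -0.74, from 105 to 62.6, which did not pass (adjusted p = 0.0810). Aif1 lost its call when dehydrated 1, 3 or 4 or control 2, 3 or 5 was left out (adjusted p up to 0.114), and with probe sets averaged it was 0.31 (adjusted p = 0.417). Melanotroph sums overlapped, at 3117 to 3509 and 2683 to 3174, where Pcsk2, 1 of 4 tested, fell by 0.88. Anterior lobe sums overlapped, at 2587 to 7973 and 4837 to 9424, and Fshb, 1 of 6 tested, fell by 0.86. The other 5 had positive values and did not pass, the largest being Tshb at 1.17, from 205 to 459 (adjusted p = 0.260), then Gh1 at 0.38 and Cga at 0.32. None of the listed marker probe sets was at 0 on any array, which does not show detection, because signal over background was not assessed.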

How the data were processed

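The authors deposited linear signal intensity values for 10 Affymetrix Rat Genome arrays, with 1 value for each probe set, and GCOS 1.2 is named in the submitters' processing notes. Its algorithm and scaling are not given in the sources used here. The deposited intensity values had the same mean on all arrays after trimming 2% at each end, and were not scaled again. Signal over background was not assessed. Of 31099 probe sets, 57 controls were left out. The platform annotation gives 1 symbol for 20826 of the remaining 31042, several for 436 and none for 9780, and gene IDs changed 0 symbols. Values were taken as log2(signal + 5), which understates changes of dim genes, and the 60% with the highest mean (18625) were tested with limma 3.58.1 in R 4.3.3 (lmFit, eBayes with an intensity trend, two-sided), adjusted by Benjamini-Hochberg over all tested probe sets. Changes are dehydrated minus control. A gene passed at an adjusted p under 0.05. The 3' to 5' ratio was compared over all 252 arrangements of the arrays. The labels give no replicate numbers, so arrays are numbered by deposition order, as names only. Figures were drawn with matplotlib 3.10.9 in Python 3.11.15. The steps were tested on simulated data.

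The matrix genes and all lists were chosen with earlier results of these data known. Values on every array are given for matrix genes that passed and for the smallest p in roles with fewer than 2 that passed. They are also given for further genes chosen after their values were seen (Fmod, Lamc1, Lama2, Htra1, Ccn2 and Tgfb3). From each context list up to 4 genes that passed are named, or the smallest p. Some markers that did not pass are named too, after their values were seen, and the 3 promoters and the motifs were chosen after the values were seen. Alternatives covered the pseudocount (1 or 16), the filter (none or 40%), normalization, the variance model, the probe sets of a gene, a covariate for the 3' to 5' ratio, and arrays left out.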

Additional observations from a re-analysis of the deposited data

Results flagged for a closer look

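In 102 groups of 5 array values (the matrix genes, the summed markers and the 3' to 5' ratio in either condition), 2 held an array set apart from the other 4, where chance flags about 1 in 20. Hspg2 on dehydrated 2 had a signal of 65.9 and the others 42.5 to 47.0, so that the gap filled 0.808 of the range. Fmod on control 1 had 134 and the others 97.2 to 106, with a gap of 0.771 of the range. Both gaps exceed Dixon's 95% limit for 5 values, and neither gene passed in the comparison.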

How the results depend on the processing

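No paired analysis was possible because the labels give no replicate numbers or shared batch. Of the 13 matrix genes that passed, 9 kept their call and direction under every one of the 22 alternatives that gave a value; the exceptions were Lama4, Adamts1, Vcan and Dcn. Beyond the losses given above, Lama4 lost its call without the filter (adjusted p = 0.0721), without an intensity trend (0.0720), with the ratio as a covariate (0.0688) and without dehydrated 5 and control 1 (0.0502). Vcan was below the filter, and had no value, among the brightest 40% and with probe sets averaged. The number that rose was 9 to 12 with 1 array left out and 9 to 13 otherwise. Of the 24 others, 5 passed under some alternative (Timp1, Mmp2, Lamc1, Sparc and Timp3). Without dehydrated 5 and control 1, 1398 probe sets were called instead of 458 (666 higher, 732 lower, against 312 and 146). There, 2 matrix genes fell (Spock3 and Timp3) and 3 related genes fell, and the 3' to 5' ratios of the groups no longer overlapped. Centred on the median, 456 probe sets rose and 113 fell. Without an intensity trend 240 probe sets were called and 0 related genes fell. With 1 array left out, the probe sets called ranged from 218 (without dehydrated 3) to 1163 (without dehydrated 5), and the difference in the 3' to 5' ratio ranged from 0.24 to 0.56, the latter without control 1 (exact permutation p = 0.0476). Changes of 7 matrix genes near 0 turned sign without passing. With quantile normalization Bcan was 0.014, Sparcl1 -0.0040 and Timp2 -0.012; with cyclic loess they were 0.018, -0.012 and -0.031; centred on the median Bcan was 0.034, and with the 3' to 5' ratio 0.099. With probe sets averaged Fbln1 was -0.011, Nid1 0.16, Timp2 -0.27 and the marker Col1a2 0.060. Without dehydrated 5 and control 1, Tnc was -0.024 and Timp2 -0.018. With 1 array left out, values ran from -0.062 to 0.10 for Bcan, -0.0495 to 0.099 for Sparcl1, -0.026 to 0.11 for Tnc, -0.0125 to 0.051 for Timp2 and -0.084 to 0.029 for Fn1. The cause of these changes was not tested.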
